A study of Homo sapiens with 6 samples.

Results

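HLA class II genes, their transactivator CIITA and the invariant chain CD74 were examined in Kasumi-1 cells, a human acute myeloid leukaemia line. The genes were found in the table by symbol: HLA-DRA, HLA-DRB1, HLA-DPA1, HLA-DPB1, HLA-DQA1, HLA-DQB1, HLA-DMA, HLA-DMB, CIITA and CD74. All 10 were found among the 27576 genes of the deposited table. The study exposed one group to interleukin-10 (rhIL-10, a recombinant human cytokine, at 10 ng/ml) and set it against a control group that received 0.5% BSA (bovine serum albumin). Both groups were kept in RPMI1640 with 20% fetal bovine serum, harvested after 72 h and profiled by RNA sequencing, with 3 libraries in each group. Nothing in the labels says that the replicates came from different cultures, and the spread behind each p-value may therefore be technical only. A single cell line was used, and bulk RNA cannot tell fewer expressing cells from less RNA per cell.

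Class II molecules are heterodimers of an alpha and a beta chain that carry peptides from endosomes to the surface of antigen-presenting cells, where CD4+ T cells read them. In the classical scheme CD74 occupies the groove of newly made dimers and guides them to endosomes, and the non-classical dimer HLA-DM then exchanges its remnant for peptide. Transcription of these genes depends on CIITA, a coactivator that does not bind DNA itself but docks on factors bound to the X and Y elements of the promoters: RFX, CREB and NF-Y. In monocytes IL-10 is known to reduce class II at the cell surface.

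The X and Y elements are shown here because they are the sequence feature through which CIITA acts. RefSeq promoters on GRCh38.p14, each 250 bases before to 50 bases after a start, were at hand for 8 of the 10 genes. In the stretches below, written 5′ to 3′ on the strand of the gene, capitals mark the letters AGCAAC or TGATGA (used here for the X element) and ATTGG or TGATTGG (for the Y box), or CCAAT where the Y box core lies on the opposite strand. The stretches lie at chr5:150412948-150413013 (minus strand) for CD74, chr6:32589879-32589944 (minus) for HLA-DRB1, chr6:32953161-32953226 (minus) for HLA-DMA, chr6:32666730-32666795 (minus) for HLA-DQB1 and chr6:33075841-33075906 (plus) for HLA-DPB1.
CD74: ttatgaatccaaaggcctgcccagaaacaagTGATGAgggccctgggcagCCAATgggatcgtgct
HLA-DRB1: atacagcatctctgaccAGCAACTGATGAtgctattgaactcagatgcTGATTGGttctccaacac
HLA-DMA: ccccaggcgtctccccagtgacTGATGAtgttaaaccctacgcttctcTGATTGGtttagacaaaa
HLA-DQB1: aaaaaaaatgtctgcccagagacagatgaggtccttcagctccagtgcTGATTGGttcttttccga
HLA-DPB1: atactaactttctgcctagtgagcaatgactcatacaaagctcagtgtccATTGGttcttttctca

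The 8 genes had 9 promoters. A gene was counted if any of its promoters matched, while the percentages are of promoters. On either strand, ATTGG was found in 7 of the 8 genes, all but HLA-DPA1, and in 34.6% of 35116 RefSeq promoters. The longer TGATTGG, which contains it, was found in 3 of the 8 and in 6.95% of promoters. TGATGA was found in 5 of the 8 and in 10.9% of promoters, and AGCAAC in 3 of the 8 and in 12.8%. Either X element followed within 40 bases by ATTGG on the same strand was found in 2 of the 8, HLA-DRB1 and HLA-DMA, and in 0.8315% of promoters. The letters were chosen with these promoters in view, and a match describes the sequence without showing that a factor binds there.

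Values are read counts that the authors divided by 1 size factor per library, called normalised read counts here. Recovered depth was 20750115 to 23077693 reads in the IL-10 libraries, against 22429270 to 24222897 reads in the control libraries. The labelled cell type was compared with marker lists: the summed level of 6 myeloid blast markers was 126980 to 210243 in IL-10 libraries and 126230 to 223620 in control libraries. MPO was the highest of them, at 66945 to 160649, and CD38, picked out after its values were seen, was at 27.0 to 38.0. The 6 T and NK cell markers summed to 1818 to 2704 in IL-10 and 1701 to 2456 in control libraries. The 5 epithelial markers summed to 1629 to 1974 in IL-10 and 1893 to 1932 in control libraries. The monocyte and macrophage marker CD14 reached at most 2.67 and the B cell marker MS4A1 at most 1.86 in any library, both picked out after their values were seen. IL-10 replicate 2 stood apart by the GC content of transcripts: its median log2 deviation from the other 5 libraries ran from -0.75 in the lowest of 10 equal classes of GC content to 0.86 in the highest. The log2 fold changes of the class II genes and the medians of the lists are therefore also given without it, where they could be fitted. Some of the 7 listed liver genes stood higher in both replicate 2 libraries. Albumin, also picked out after its values were seen, was at 31.7 in the IL-10 one and 112 in the control one. FGB, picked out in the same way, was at 1.18 or less in every library. SERPINA1 was lowest in replicate 2 of each group, at 1158 with IL-10 and 879 in control cells. The 7 summed to 1328 to 1684 in IL-10 libraries (replicate 2 at 1561) and 1323 to 1749 in control libraries (replicate 2 at 1749). The part of these genes in the results below was not tested.

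None of the 10 genes passed the test of IL-10 against control cells, limma on log2(normalised read count + 1) with Benjamini-Hochberg adjustment over all genes. All 10 passed the filter on low values, and 0 of them had an adjusted p under 0.05, with 0 of 21946 genes tested past that threshold (0% called). At an unadjusted p under 0.05, limma, edgeR and DESeq2 each gave 0 of the 10, while limma gave 344 of all genes (1.57%). In 3 of the alternatives 1 or more of the 10 had an unadjusted p under 0.05, none with an adjusted p under 0.05: with sample weights, in pairs 1 and 3 alone with the block, and without IL-10 replicate 2. The IL-10 and control values overlapped in all 10, and 5.87% of all genes tested had groups that did not overlap. The narrowest 95% interval among the 10 reached 0.49 to either side of its log2 fold change, so differences smaller than that could not be told from the spread between libraries.

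The level of the genes was uneven. Per kilobase of the principal transcript, CD74 had 3108 ± 984 normalised reads in IL-10 cells and 2498 ± 30.8 in control cells (SD, n = 3 each), a level above 97.6% of the genes tested. HLA-DMA followed at 28.1 ± 12.3 in IL-10 and 26.7 ± 7.88 in control cells per kilobase, above 45.1% of genes. HLA-DRA had 21.3 ± 10.8 in IL-10 and 27.9 ± 6.73 in control cells per kilobase. HLA-DRB1 had 19.8 ± 9.24 in IL-10 and 24.1 ± 7.88 in control cells, and HLA-DPA1 18.0 ± 9.27 in IL-10 and 22.3 ± 5.96 in control cells. From HLA-DMA to HLA-DPA1 neighbours in this order lay within each other's spread. HLA-DPB1 (10.4 ± 2.68 in IL-10 and 10.8 ± 5.20 in control cells) also overlapped CIITA, which had 8.88 ± 1.31 in IL-10 and 7.07 ± 0.808 in control cells on its principal transcript of 16059 bases. The place of CIITA depends on the transcript: on one of 4657 bases it had 30.6 ± 4.51 in IL-10 cells and 24.4 ± 2.79 in control cells. HLA-DQB1 and HLA-DMB stayed at 6.12 per kilobase or less in every library, and HLA-DQA1 was lowest, at 1.68 or less.

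**Figure D1:**
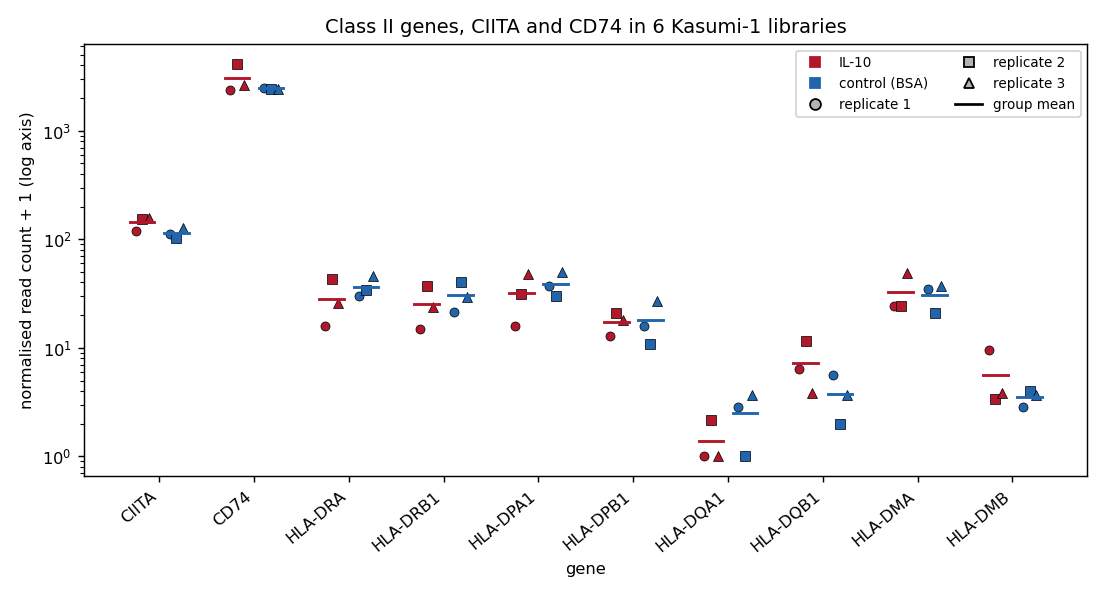
Normalised read counts of the 10 genes on a log axis (value + 1), 1 point per library, with IL-10 cells to the left of control cells and bars at the group means. CD74 sits between 2378 and 4155, CIITA between 101 and 158, and the HLA genes below 50, with overlapping groups for each gene.

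CIITA (ENSG00000179583; GRCh38 chr16:10866222-10943021, plus strand), the master regulator of the group, had normalised read counts of 119, 152 and 158 in IL-10 replicates 1, 2 and 3, against 112, 101 and 127 in control replicates 1, 2 and 3. IL-10 replicates 2 and 3 were above every control library, and IL-10 replicate 1 fell within the control range. The mean was 143 ± 21.0 in IL-10 cells and 113 ± 13.0 in control cells, a log2 fold change of 0.32 (SE 0.21, 95% interval -0.16 to 0.81, limma adjusted p = 0.982). Same-numbered libraries gave log2 ratios of 0.08, 0.58 and 0.31, so the IL-10 library was the higher one in all 3 pairs, as for 12.4% of the genes tested. Without IL-10 replicate 2 the log2 fold change was 0.27 (limma adjusted p = 1.00), and it was 0.20 after correction for GC content. The summed reads, 406 in IL-10 and 365 in control libraries, gave a ratio of 1.25 after scaling (counting interval 1.09 to 1.45), which compares these libraries by counting error alone. The within-group SD was 0.19 on the log2 scale, where counting alone would give 0.13. Of the 50-base runs of its transcript, 14.6% are shared with ENSG00000280153, an overlapping gene on the same strand at 8.38 to 25.6 in these libraries, so its reads are partly uncertain.

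CD74 (ENSG00000019582; chr5:150401637-150412929, minus strand), the invariant chain and also a receptor subunit for the cytokine MIF, had 2378, 4155 and 2614 in IL-10 replicates 1, 2 and 3, against 2486, 2432 and 2434 in the control replicates. The control libraries were close together, and IL-10 replicate 2 alone was far above the other 5 libraries. The mean was 3049 ± 965 in IL-10 cells and 2451 ± 30.2 in control cells, with a log2 fold change of 0.27 (SE 0.22, 95% interval -0.22 to 0.76, limma adjusted p = 0.982). Without IL-10 replicate 2 the log2 fold change was 0.02 (limma adjusted p = 1.00), and after GC correction it was 0.07. With 60.1% GC, CD74 belongs to the class of genes between 58.7% and 62.2%. In IL-10 replicate 2 the median of that class deviated by 0.72 on the log2 scale from the other libraries, and CD74 by 0.75. None of its 50-base runs was shared with another gene.

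**Figure D2:**
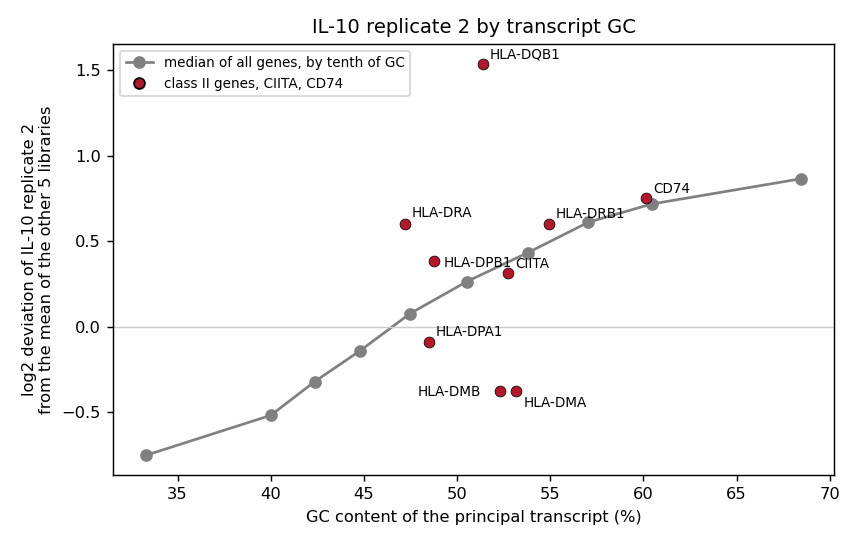
Log2 deviation of IL-10 replicate 2 from the mean of the other 5 libraries against the GC content of the transcript in percent, with the median of each of 10 equal classes of genes as a line and single class II genes, CIITA and CD74 as points. CD74 at 60.1% GC deviates by 0.75 beside a median of 0.72 for its class, and the less abundant HLA genes scatter more widely around the line.

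The HLA-DR pair gave the lower values in IL-10 cells in most libraries, without passing the test. HLA-DRA (ENSG00000204287; chr6:32439842-32445046, plus strand), the alpha chain shared by all DR molecules, had 15.0, 42.3 and 24.7 in IL-10 replicates 1, 2 and 3, against 28.9, 32.8 and 45.4 in control replicates. IL-10 replicates 1 and 3 were below every control library, and IL-10 replicate 2 was above 2 of the 3. The mean was 27.3 ± 13.9 in IL-10 cells and 35.7 ± 8.61 in control cells, with a log2 fold change of -0.47 (SE 0.40, 95% interval -1.36 to 0.43, limma adjusted p = 0.982). Leaving out single libraries moved the value both ways: it was -0.11 without IL-10 replicate 1, -0.83 without IL-10 replicate 2 (limma adjusted p = 1.00) and -0.28 without control replicate 3. In pairs 1 and 3 alone with the replicate as a block it was -0.88 (limma adjusted p = 0.889). The reads were few, 76 in IL-10 and 115 in control libraries, with a scaled ratio of 0.746 (counting interval 0.550 to 1.005).

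HLA-DRB1 (ENSG00000196126; chr6:32578769-32589848, minus strand), the main DR beta chain, had 13.9, 36.4 and 22.8 in IL-10 replicates, against 20.5, 39.8 and 28.5 in control replicates. It was the 1 gene of the 10 whose IL-10 library was lower in all 3 pairs, with log2 ratios of -0.53, -0.12 and -0.31, though the groups overlapped widely. The share of all genes lower in all 3 pairs was not counted, and 12.4% of the genes tested were higher in all 3. The log2 fold change of HLA-DRB1 was -0.32 (SE 0.41, 95% interval -1.24 to 0.60, limma adjusted p = 0.982), and without IL-10 replicate 1 its sign changed. Without IL-10 replicate 2 it was -0.65 (limma adjusted p = 1.00). HLA-DRB5, a second DR beta gene and no member of the group, shares 8.64% of the 50-base runs of HLA-DRB1, so reads could be split between them. It had 0, 1.18 and 0 in IL-10 replicates, against 0.932, 4.97 and 5.34 in control replicates, from 1 read and 12 reads in all. The scaled ratio was 0.094 (counting interval 0.0022 to 0.64), with a limma adjusted p of 0.982 over all genes.

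The genes of both HLA-DP chains overlap on opposite strands, and the sources used here do not give whether strand was used in counting. HLA-DPA1 (ENSG00000231389; chr6:33064569-33080775, minus strand), the DP alpha chain, had 15.0, 30.6 and 46.5 in IL-10 replicates, against 36.3, 28.8 and 48.9 in control replicates. The low IL-10 mean came from replicate 1, and replicates 2 and 3 were close to their same-numbered controls. Its log2 fold change was -0.41 (SE 0.42, limma adjusted p = 0.982), -0.47 without IL-10 replicate 2, and of changed sign without IL-10 replicate 1. HLA-DPB1 (ENSG00000223865; chr6:33075926-33087201, plus strand), the DP beta chain, had 11.8, 20.0 and 17.1 in IL-10 replicates, against 14.9, 9.94 and 25.8 in control replicates. All IL-10 values lay inside the control range, and the log2 fold change was 0.02 (SE 0.41, limma adjusted p = 0.997), or -0.14 without IL-10 replicate 2. Its sign changed in 13 of the alternatives, equal totals and GC correction among them.

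The HLA-DQ genes were near the limit of detection. HLA-DQB1 (ENSG00000179344; chr6:32659467-32668383, minus strand), the DQ beta chain, had 5.34, 10.6 and 2.85 in IL-10 replicates, against 4.66, 0.994 and 2.67 in control replicates. Pair 2 had 9 reads in the IL-10 library and 1 in the control library. Pairs 1 and 3 had equal reads in both libraries, 5 each and 3 each, so that their log2 ratios of 0.17 and 0.07 come from the size factors alone. From 17 reads in IL-10 and 9 in control libraries, the scaled ratio was 2.13 (counting interval 0.898 to 5.43), and the log2 fold change was 0.92 (SE 0.59, 95% interval -0.42 to 2.27, limma adjusted p = 0.982), or 0.51 without IL-10 replicate 2. HLA-DQA1 (ENSG00000196735; chr6:32628179-32647062, plus strand), the DQ alpha chain, had 1 read over the IL-10 libraries and 5 over the control libraries. All 6 libraries were at or under the floor of 3 reads, so its fold is not printed. HLA-DQA1 still enters the median over all 10 genes and the alternatives in which it could be fitted. Of its 50-base runs, 9.53% were shared with HLA-DQA2.

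The HLA-DM genes, which encode the peptide exchange factor, overlap a readthrough transcript on the same strand. HLA-DMA (ENSG00000204257; chr6:32948613-32969094, minus strand) had 23.5, 23.5 and 47.5 in IL-10 replicates, against 33.5, 19.9 and 36.5 in control replicates. The groups overlapped, the pairs pointed both ways, and the log2 fold change was 0.04 (SE 0.38, limma adjusted p = 0.994), or 0.20 without IL-10 replicate 2. Its sign changed in 8 of the alternatives, equal totals and GC correction among them. Its locus also overlaps BRD2 on the opposite strand, which stood at 3999 to 5631. HLA-DMB (ENSG00000242574; chr6:32934629-32941070, minus strand) had 8.55, 2.35 and 2.85 in IL-10 replicates, against 1.86, 2.98 and 2.67 in control replicates. IL-10 replicate 1 was the 1 library above 3 reads, and with 13 reads in IL-10 and 8 in control libraries the scaled ratio was 1.83 (counting interval 0.704 to 5.10). Its log2 fold change was 0.52 (SE 0.54, limma adjusted p = 0.982), or 0.80 without IL-10 replicate 2.

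**Figure D3:**
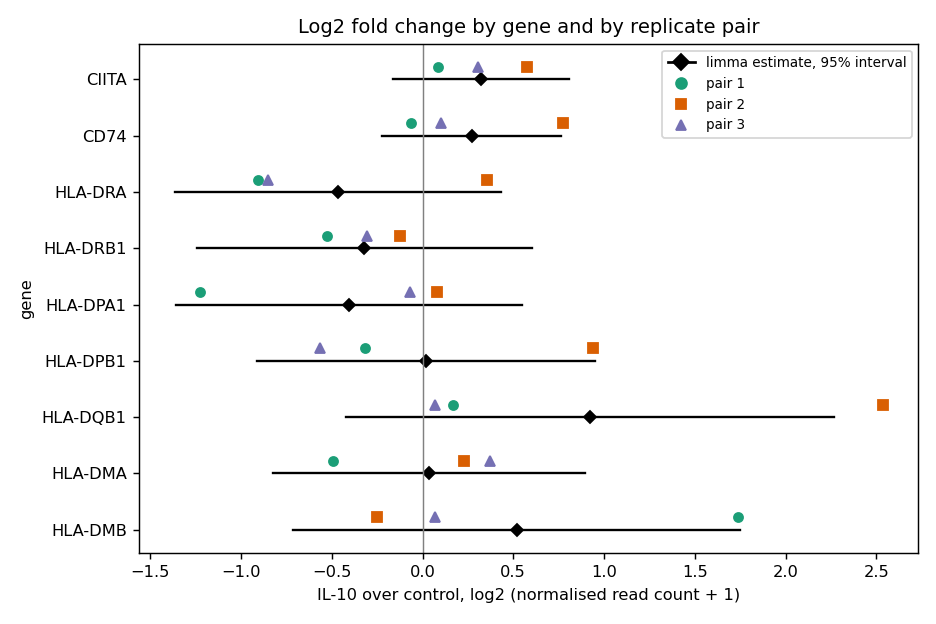
Log2 fold change, IL-10 over control, on the log2(normalised read count + 1) scale for the 9 genes with a library above 3 reads: diamonds are limma estimates with 95% intervals, and the other symbols are the ratios of same-numbered libraries. Every interval spans 0, CIITA has all 3 pairs to the right of 0, and HLA-DRB1 has all 3 to the left. HLA-DQB1 also lies to the right in all 3, but had equal reads in pairs 1 and 3.

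Taken over the 9 genes with more than 3 reads in some library, 6 log2 fold changes were positive and 3 negative, from -0.47 to 0.92, with a median of 0.04. Over all 10 the median was 0.03, beside 0.02 over all genes tested, and without IL-10 replicate 2 it was 0.02 over the 9. The replicate pairs differed from each other. These counts use normalised values and include genes whose reads were equal in both libraries of a pair: HLA-DQB1 in pairs 1 and 3, HLA-DMA in pair 2 and HLA-DMB in pair 3. HLA-DPA1 in pair 2 counts as higher though it had fewer reads with IL-10, 26 against 29. CIITA in pair 1 does as well, with 111 reads against 120. The size factor of IL-10 replicate 2 was 0.851 and that of control replicate 2 was 1.01, at recovered depths of 23077693 and 22429270 reads. In pair 1 the IL-10 library was higher in 3 of the 9 (50.3% of all genes), with a median log2 ratio of -0.32. In pair 2 it was higher in 7 of the 9 (51.2% of all genes), with a median of 0.36, and in pair 3 in 5 of the 9 (50.4% of all genes), with a median of 0.07. Over all genes the medians of the pairs were 0.00, 0.03 and 0.00.

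The 6 classical chains, DR, DP and DQ together, summed to 60.9, 141 and 114 normalised reads in IL-10 replicates, against 107, 112 and 154 in control replicates. Within pairs the ratio was 0.569 in pair 1 (counting interval 0.406 to 0.788), 1.26 in pair 2 (0.963 to 1.64) and 0.741 in pair 3 (0.582 to 0.940). Pairs 1 and 3 thus lay below 1 beyond counting error and pair 2 did not, and these intervals compare single libraries and not the conditions. In pair 2 the reads were 120 with IL-10 and 113 in control, before division by size factors of 0.851 and 1.01. Normalised totals over all genes were 2.71e+07 in IL-10 replicate 2 and 2.23e+07 in control replicate 2. The part of this scaling in the ratio of pair 2 was not tested. The group means were 105 ± 40.8 in IL-10 cells and 124 ± 25.6 in control cells (SD, n = 3 each), and 3 libraries against 3 cannot give an exact permutation p below 0.10.

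CIITA and the HLA genes were also set against each other within a library, a ratio chosen after its values were seen. Reads of CIITA over the summed reads of the 8 HLA genes came to 1.28, 0.908 and 0.960 in IL-10 replicates 1, 2 and 3, against 0.784, 0.750 and 0.659 in control replicates. All 3 IL-10 ratios were above all 3 control ratios, in each pair as well. How often such ratios of other genes separate the groups was not counted. Among single genes tested, 5.87% had groups that did not overlap. Reads of CD74 over the same sum came to 25.6, 24.9 and 15.9 in IL-10 replicates, against 17.4, 18.0 and 12.6 in control replicates. That ratio was higher with IL-10 in each pair, while IL-10 replicate 3 lay within the control range. In IL-10 replicate 2 the GC class of CD74 deviated by 0.72 on the log2 scale, that of CIITA by 0.43 and those of the HLA genes by 0.08 to 0.43, and the part of this in the pair 2 ratios was not tested. These ratios are of reads, not corrected for length, and are compared between libraries only.

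**Figure D4:**
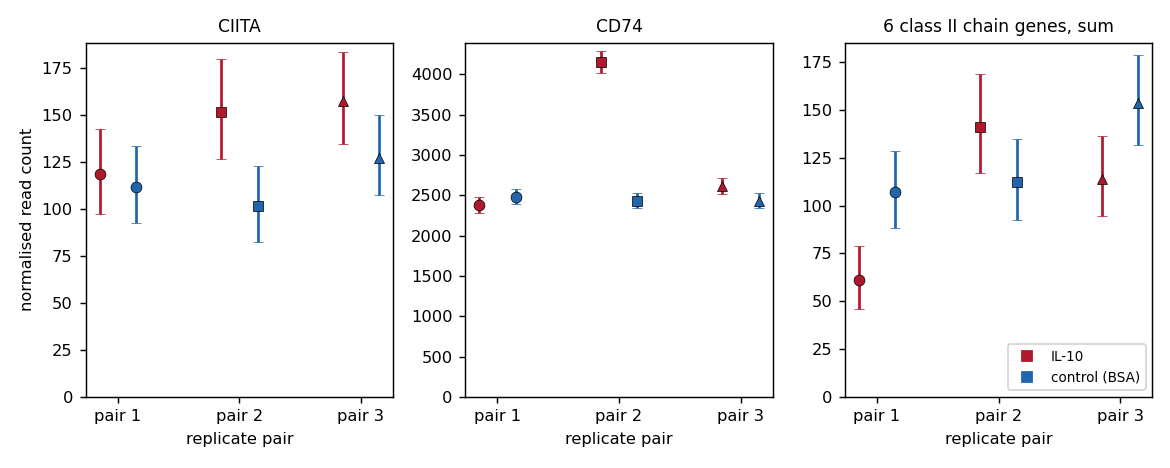
Normalised read count of CIITA, CD74 and the sum of the 6 classical class II chains in each pair of same-numbered libraries, with the IL-10 library left of the control library and bars for exact 95% intervals of counting error. By normalised read count the classical chains are lower with IL-10 in pairs 1 and 3 and higher in pair 2, where the reads were 120 against 113. CIITA is higher with IL-10 in all 3 pairs.

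The genes around class II in its pathway were compared by lists, chosen with earlier results of these data known. None of the 8 lists held a gene past the threshold. The factors that bind the X and Y elements were abundant: RFX5, the DNA-binding subunit of RFX, averaged 2513 ± 403 in IL-10 cells and 2404 ± 109 in control cells, NFYA, a subunit of NF-Y, 2031 ± 123 in IL-10 and 2125 ± 257 in control cells, and RFXANK, another RFX subunit, 1793 ± 931 in IL-10 and 1438 ± 211 in control cells (SD, n = 3 each). The 7 genes of that list had a median log2 fold change of 0.05, or -0.04 without IL-10 replicate 2, where RFXANK was at -0.19. The 8 genes of interferon gamma signalling to CIITA had a median of 0.02, or 0.03 without IL-10 replicate 2, with the kinase JAK1 at 1358 ± 106 in IL-10 and 1366 ± 23.7 in control cells, the factor USF1 at 1002 ± 169 in IL-10 and 929 ± 28.8 in control cells and the receptor chain IFNGR1 at 868 ± 171 in IL-10 and 949 ± 30.4 in control cells.

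Of 10 antigen processing genes 8 were tested, with a median of 0.06, or -0.09 without IL-10 replicate 2, among them the endosomal proteases CTSZ (8277 ± 2919 in IL-10 and 7026 ± 517 in control cells), CTSB (3595 ± 614 in IL-10 and 3211 ± 438 in control cells) and CTSD (1163 ± 652 in IL-10 and 838 ± 40.5 in control cells). The 10 trafficking and turnover genes had a median of 0.18, or -0.02 without IL-10 replicate 2, with the late endosomal GTPase RAB7A at 11046 ± 1742 in IL-10 and 10299 ± 919 in control cells, the adaptor subunit AP2M1 at 7759 ± 2705 in IL-10 and 6623 ± 476 in control cells and the lysosomal membrane protein LAMP1 at 5794 ± 1807 in IL-10 and 4954 ± 340 in control cells. Without IL-10 replicate 2 the log2 fold changes of CTSZ, CTSD and AP2M1 were each -0.09, that of LAMP1 was -0.06, that of RAB7A -0.03 and that of CTSB 0.05. In both lists the median log2 ratio of pair 2, 0.56 for processing and 0.54 for trafficking, was far from those of pairs 1 and 3, which lay between -0.04 and 0.02. MARCHF1, a ubiquitin ligase that removes class II from the surface and was picked out after its values were seen, had 297, 134 and 315 in IL-10 replicates, against 312, 300 and 330 in control replicates. IL-10 replicate 2 was the low library there, and the log2 fold change was -0.43 with it and -0.04 without it. The transcript has 39.8% GC. In IL-10 replicate 2 MARCHF1 deviated by -1.21 on the log2 scale, and the median of its GC class by -0.52. The part of GC content in its low value was not tested.

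The 5 genes of the CD74 ligand and receptor list had a median log2 fold change of 0.07, or 0.14 without IL-10 replicate 2. CXCR2, a chemokine receptor that can partner CD74, had 143, 155 and 147 in IL-10 replicates, against 123, 130 and 142 in control replicates. Its groups did not overlap, as for 5.87% of all genes tested, and its log2 fold change was 0.17 (SE 0.19, limma adjusted p = 0.982). The groups of MARCHF8 and SIN3A, in other lists and picked out after their values were seen, did not overlap either. CD44, the signalling partner of CD74, averaged 20020 ± 2025 in IL-10 and 19052 ± 1937 in control cells, and DDT, a homologue of MIF, 22.3 ± 3.82 in IL-10 and 13.2 ± 6.84 in control cells. The 8 co-stimulation genes had a median of 0.22, or 0.12 without IL-10 replicate 2, with LGALS9 at 2539 ± 1155 in IL-10 and 2067 ± 265 in control cells, the receptor CD40 at 721 ± 84.4 in IL-10 and 667 ± 119 in control cells and the adhesion molecule ICAM1 at 550 ± 49.2 in IL-10 and 459 ± 41.8 in control cells. The 12 repressors and chromatin factors had a median of 0.06, or -0.08 without IL-10 replicate 2, with the DNA methyltransferase DNMT1 at 14722 ± 4664 in IL-10 and 12858 ± 1299 in control cells, the deacetylase HDAC1 at 8063 ± 1414 in IL-10 and 7655 ± 536 in control cells and the remodeller SMARCA4 at 7828 ± 3430 in IL-10 and 6260 ± 831 in control cells. Without IL-10 replicate 2 the log2 fold changes of DNMT1 and SMARCA4 were each -0.09, that of HDAC1 was -0.08 and that of LGALS9 was -0.13. Of 9 other class II genes 3 were in the table and 2 were tested, HLA-DRB5 and HLA-DOB. HLA-DOB, a subunit of the HLA-DM inhibitor HLA-DO, had 3.23 ± 1.21 in IL-10 and 4.13 ± 2.60 in control cells.

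**Figure D5:**
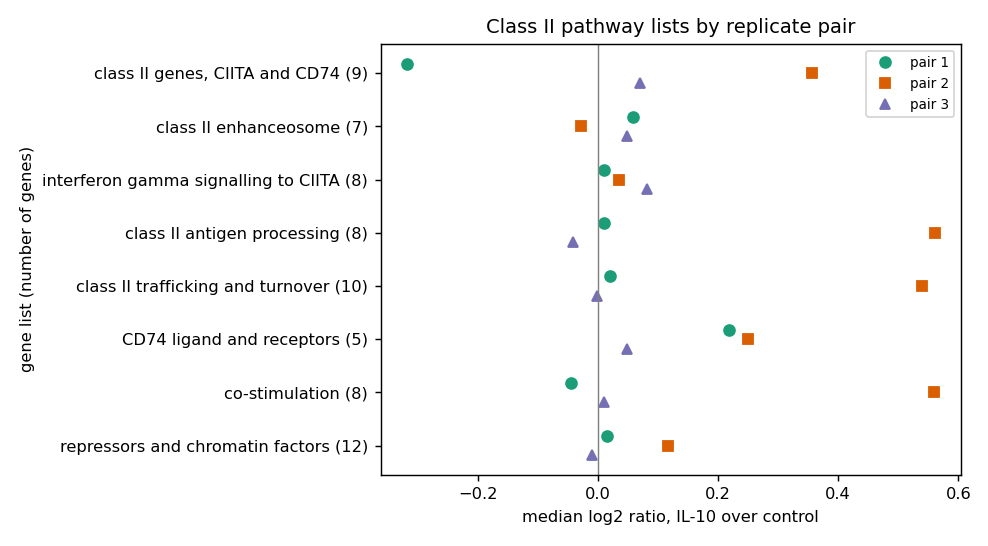
Median log2 ratio of IL-10 over control in each same-numbered pair of libraries, for class II genes with CIITA and CD74 and for 7 pathway lists, with the number of genes above 3 reads in some library in brackets. Pair 2 lies at 0.54 to 0.56 for processing, trafficking and co-stimulation, where pairs 1 and 3 lie near 0.

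Markers of other cell types that carry class II were summed by library. The summed level of 7 B cell markers was 2228 to 3320 in IL-10 libraries and 2029 to 2361 in control libraries, with MS4A1 near 0 as given above. Of 7 dendritic cell markers the table held 5, which summed to 125 to 254 in IL-10 and 130 to 177 in control libraries. The 7 monocyte and macrophage markers summed to 267 to 403 in IL-10 and 206 to 423 in control libraries, with 5 of the 7 at or under 3 reads in every library. The part of these cells in the class II values was not tested.

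The genes most like CD74 across the 6 libraries, among 11603 genes with a mean of at least 50, were CABIN1 (Pearson r = 0.999 on log2 values), LIMD1 (0.998), GTPBP1 (0.998), ACTN1 (0.997) and RPL13P12 (0.997). All 5 were highest in IL-10 replicate 2, which deviated with GC content, so the likeness rests on that library. LIMD1, at 48.2% GC, belongs to a class whose median deviated there by only 0.08 on the log2 scale. It stood at 2592 in that library and at 1857.5 to 1970.8 in the others. The genes most like HLA-DRA were BCAS3 (r = 0.955), WASH4P (0.943), GABPB2 (0.941), ENSG00000279495 (0.933) and GRIPAP1 (0.930). All 5 were lowest in IL-10 replicate 1. These are descriptions over 6 libraries that share depth and preparation.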

How the data were processed

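RNA of 6 Kasumi-1 samples was extracted with Trizol and sequenced after TruSeq library preparation, per the labels' protocols. Although labelled FPKM, the deposited values are a signal obtained from read counts through division by a size factor for each library (0.851 to 1.12): multiplied back, 100% came out whole within 0.01 read. For control replicate 2 this factor is nearly 1 and could not be verified automatically, and edgeR was also run on the other 5 libraries. The submitters' processing notes name edgeR 3.18.1. Not given in the sources used here are the aligner, the counter and whether strand was used.

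Of the gene identifiers, 26883 matched a symbol and 27052 matched GENCODE 29, whose GRCh38 coordinates and principal transcripts (length, GC content) were used. limma 3.58.1 (R 4.3.3) was fitted with an intensity trend to log2(value + 1) of 21946 genes (those reaching a value of 1 in 3 or more libraries), two-sided and without a block. The threshold was an adjusted p (Benjamini-Hochberg) under 0.05. This scale understates the change of low genes. The design had assumed FPKM, and the planned test was kept. Alternatives were edgeR 4.0.16 (quasi-likelihood) and DESeq2 1.42.0 on recovered reads, other pseudocounts, filters and scalings, a GC correction, sample weights, a replicate block and leaving out each library.

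Same-numbered libraries deviated together from their group means, with correlations of 0.367, 0.605 and 0.726 over 11605 genes. As each exceeds 0.1, ratios within pairs are given and the block was tried as an alternative, while the reported fold changes and p-values come from the fit without it. The labels give only a shared number, and IL-10 replicate 3 with control replicate 1 (0.208) and IL-10 replicate 1 with control replicate 3 (0.176) also exceeded 0.1. Counting intervals (95%, exact) and the floor of 3 reads cover counting error only. The members and lists were chosen with earlier results of these data known. Genes named outside them are, in each list, those past the threshold and the 3 of highest mean, and the 5 most like CD74 and HLA-DRA. Genes that overlap a member or share sequence with it are named as well. Any other gene whose values are given is marked as chosen after its values were seen.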

Additional observations from a re-analysis of the deposited data

How the results depend on the processing

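Across 22 alternatives, 0 of the 10 genes passed the threshold in any. Over all genes 0 passed in each alternative except pairs 1 and 3 only with the replicate block, where 11 did (10 higher, 1 lower, none of the 10 genes). The count of genes at an unadjusted p under 0.05 was 344 by limma and 94 (DESeq2) to 2519 (sample weights) in the alternatives, with 257 by edgeR, 763 without the intensity trend, 849 with GC correction and the replicate block, 860 in pairs 1 and 3 with the block, and 512 with the replicate block alone, which changed no call. Among the 10, limma gave such a p to HLA-DRA in pairs 1 and 3 (unadjusted p = 0.0072, adjusted 0.889), without IL-10 replicate 2 (0.041, adjusted 1.00) and with sample weights (0.0035, adjusted 0.185), to HLA-DPA1 in pairs 1 and 3 (0.026, adjusted 0.999) and with weights (0.0072, adjusted 0.217), and with weights to HLA-DRB1 (0.0497, adjusted 0.435), HLA-DMB (0.0057, adjusted 0.202) and HLA-DQA1 (0.017, adjusted 0.289). The median log2 fold change of the 10 genes was -0.29 (-0.2933) with sample weights, against 0.03 as reported, and the cause was not tested. It ranged from -0.16 to 0.27 when single libraries were left out. In 24 of 213 gene-by-alternative comparisons the sign changed, 13 of them for HLA-DPB1, 8 for HLA-DMA and 1 each for HLA-DRB1, HLA-DPA1 and CD74, none past the threshold in either fit. HLA-DRB1 and HLA-DPA1 did so without IL-10 replicate 1, and CD74 with sample weights. HLA-DQA1 could be fitted in 17 of the 22. Setting equal totals moved the median of all genes to -0.08. The edgeR test without control replicate 2, chosen after seeing the data, gave 0. Few reads limit the HLA-DQ genes and HLA-DMB, which had 17 reads or fewer per group. The parts of depth and of sequence shared with other genes in these low counts were not tested.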
